A study of Rattus norvegicus with 6 samples.

Results

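The 10 genes described here encode regulators of energy metabolism: the coactivators Ppargc1a, Ppargc1b and Perm1, the estrogen-related receptors Esrra, Esrrb and Esrrg, the peroxisome proliferator-activated receptors Ppara and Ppard, and the factors Nrf1 and Tfam. They were taken by symbol from a table of 22250 rat genes, in which each symbol had 1 entry, and all 10 passed the filter on low counts that kept 13784 genes for testing. RNA-Seq had been performed on left ventricular myocardium of transplanted donor hearts on postoperative day 1. Young donors were rats of 10 weeks (animals 3, 13 and 15) and aged donors rats of 1 year (animals 4 and 7 and a different animal 3). All donors were male Sprague-Dawley rats with no engineered allele, every heart had been arrested and cold-stored in University of Wisconsin solution, and every recipient was a young rat. A graft of this kind also holds blood cells of its recipient. Hearts that were not transplanted were not analysed here, so the levels are those after storage and reperfusion in both groups, and the age of the donor is the compared variable.

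The 3 families work as a chain. PGC-1 coactivators, encoded by Ppargc1a and Ppargc1b, do not bind DNA themselves but dock on transcription factors, among them the ERR and PPAR nuclear receptors and NRF1, and recruit the machinery that activates transcription. ERR receptors act on genes of the citric acid cycle and oxidative phosphorylation, and PPAR receptors with an RXR partner act on genes of fatty acid uptake and oxidation. NRF1 acts on nuclear genes for mitochondrial proteins and on Tfam, whose product packages mitochondrial DNA and takes part in starting its transcription. PERM1 is a muscle protein induced by PGC-1 and ERR. The adult heart draws most of its energy from fatty acids, and these regulators are abundant in cardiomyocytes.

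Values below are reads counted on a gene per 1000000 reads after scaling by the trimmed mean of M values (CPM), and the hearts of each group are given in the order young animals 3, 13 and 15 and aged animals 3, 4 and 7. A log2 fold change is aged minus young from edgeR's quasi-likelihood test, with its standard error (SE). A gene was called higher or lower at the limits of the study: the fold had to exceed 1.5 or stay under 0.67, and the p-value, before any adjustment, had to be less than 0.05. Adjustment was by the Benjamini-Hochberg method over the 13784 genes.

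Libraries held 21457509 to 22277905 counted reads in young donor hearts and 22508040 to 24560869 in aged donor hearts. A pair of libraries stood apart. In aged animal 3 the 10 cardiomyocyte markers measured, contractile and calcium-handling genes such as Myh6 and Tnnt2, summed to 148 CPM, so the defining transcripts of the labelled tissue were nearly absent, against 6721 and 6306 CPM in the other aged donor hearts. In young animal 15 they summed to 11611 CPM, against 75148 and 83677 CPM in young animals 3 and 13. Of these markers, 4 were lower in aged donor hearts, 6 did not pass the limits and none was at 0 in any heart. The summed neutrophil markers ran from 17.0 to 144 CPM in young and from 355 to 1356 CPM in aged donor hearts, with 7 of 8 tested markers higher, and the summed macrophage markers from 374 to 2411 CPM and from 3798 to 7339 CPM, with 5 of 10 higher. The markers of endothelium (0 of 7 past the limits) and smooth muscle (0 of 4) gave no call, while 2 of 6 fibroblast markers were lower, 1 of 5 T cell markers was higher and 1 of 2 tested adipocyte markers was higher. In bulk tissue, fewer cells of a type and less RNA per cell cannot be told apart. The edgeR tests and the within-heart ratios were therefore also computed without young animal 15 and without aged animal 3, whereas the order of levels and the correlations were computed over all 6 hearts only.

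Of the 10 regulators, 5 were lower in aged donor hearts, namely Ppargc1a, Ppargc1b, Perm1, Ppara and Ppard, none was higher, and Esrra, Esrrb, Esrrg, Tfam and Nrf1 did not pass the limits. The background was 19.0% of all genes tested called lower and 13.2% called higher. All aged donor hearts lay below all young donor hearts for 7 regulators (20.6% of all genes tested) and above them for Nrf1 alone (21.0%). The median log2 fold change was -2.65 over the regulators and 0.02 over all genes tested, and 9 of the 10 had a negative value. After adjustment, edgeR left 0 genes of the whole table below 0.05, where 4731 had been below it before, and the lowest adjusted value was 0.0916. DESeq2 left 3592 genes below 0.05 after adjustment, including the same 5 regulators, and limma-voom with quality weights gave 8416, including 9 of the 10. Leaving out young animal 15, or aged animal 3, gave 7 lower regulators in each case, and leaving out both gave 8. Genes called lower in the whole table then numbered 3412 of 14109, 2067 of 14033 and 3632 of 13863. With all hearts they were 2621 of 13784. Young animal 15 and aged animal 3 were picked for their measured values, so the gain in calls is a description. A covariate for the cardiomyocyte marker level left 2 lower regulators, Ppargc1a and Perm1, and 422 lower genes in the whole table. With library totals in place of the trimmed mean, the median of all genes moved to 0.46, 5 regulators were lower and 1 (Nrf1) higher, and the genes called turned from 1815 higher and 2621 lower to 3147 higher and 1441 lower.

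**Figure D1:**
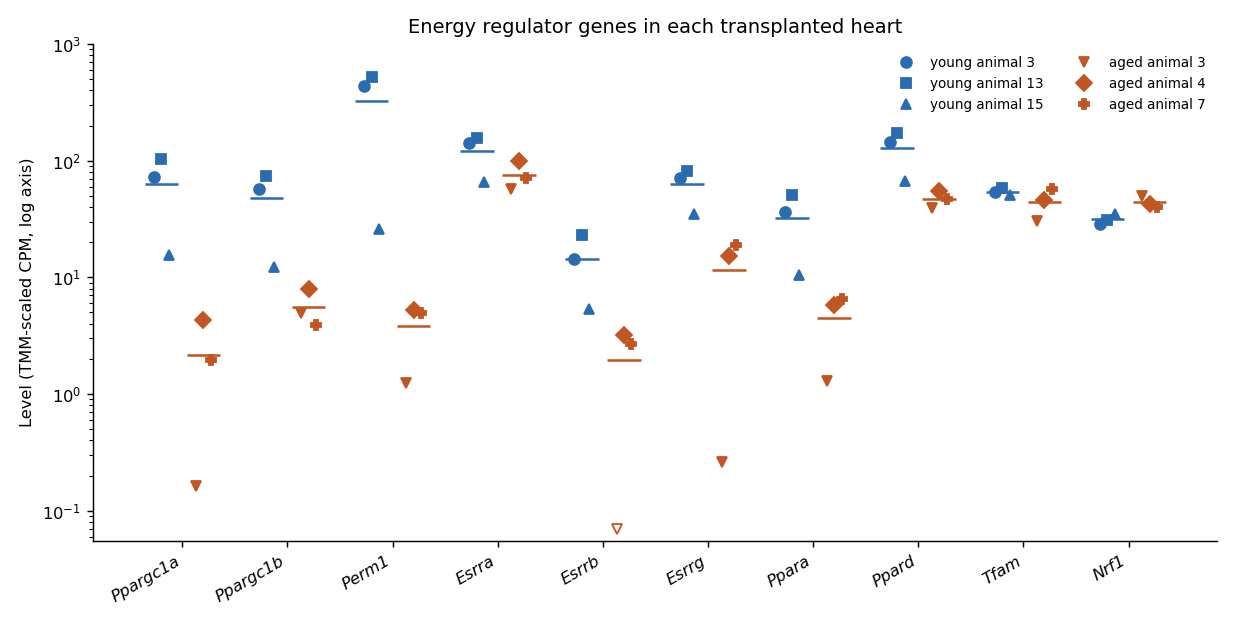
Level of each regulator in each heart, in CPM on a log axis. Points are hearts (blue, young donors; orange, aged donors), horizontal bars are group means of 3 hearts, and the open symbol at the bottom marks 0 reads of Esrrb in aged animal 3. Young animal 15 (upward triangles) was the young heart nearest to the aged mean for all 10 genes.

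The sequences upstream of the regulators show how differently their promoters are built. Printed here are those of the coactivators with the largest falls (Ppargc1a and Perm1), the PPAR gene with the larger fall (Ppara), the gene that moved the other way (Nrf1) and a target of NRF1 that did not pass the limits (Tfam). Each is the 250 bases before the annotated start, 5' to 3' on the strand of the gene, from RefSeq on build GRCr8, with matches to 1 of 4 motifs in capitals.
Ppargc1a, chr14:63634058-63634307, plus strand: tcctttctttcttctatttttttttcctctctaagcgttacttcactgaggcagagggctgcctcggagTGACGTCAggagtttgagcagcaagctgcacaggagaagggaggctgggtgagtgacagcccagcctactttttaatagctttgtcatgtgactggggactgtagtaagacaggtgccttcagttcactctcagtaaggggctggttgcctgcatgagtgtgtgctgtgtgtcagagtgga
Perm1, chr5:172081999-172082248, plus strand: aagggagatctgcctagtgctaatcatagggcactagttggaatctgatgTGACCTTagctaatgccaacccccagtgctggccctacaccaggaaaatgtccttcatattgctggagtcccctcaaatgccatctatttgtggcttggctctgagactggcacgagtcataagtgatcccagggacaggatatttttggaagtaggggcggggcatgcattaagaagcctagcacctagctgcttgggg
Ppara, chr7:118712357-118712606, plus strand: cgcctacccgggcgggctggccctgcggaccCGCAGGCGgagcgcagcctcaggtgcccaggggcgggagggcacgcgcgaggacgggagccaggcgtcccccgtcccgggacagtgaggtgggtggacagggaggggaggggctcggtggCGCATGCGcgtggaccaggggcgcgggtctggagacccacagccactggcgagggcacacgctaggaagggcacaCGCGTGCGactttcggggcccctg
Nrf1, chr4:59632176-59632425, plus strand: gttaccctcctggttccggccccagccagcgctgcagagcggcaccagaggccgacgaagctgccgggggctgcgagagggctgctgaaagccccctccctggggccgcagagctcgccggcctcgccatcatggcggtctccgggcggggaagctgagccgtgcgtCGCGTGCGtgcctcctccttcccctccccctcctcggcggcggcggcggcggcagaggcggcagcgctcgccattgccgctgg
Tfam, chr20:17355123-17355372, plus strand: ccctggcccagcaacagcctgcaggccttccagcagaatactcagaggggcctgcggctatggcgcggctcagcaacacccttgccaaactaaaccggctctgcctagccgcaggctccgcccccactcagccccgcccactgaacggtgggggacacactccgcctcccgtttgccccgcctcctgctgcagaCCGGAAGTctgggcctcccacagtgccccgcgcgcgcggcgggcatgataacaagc
The motifs, searched on both strands, were the cAMP response element TGACGTCA, the ERR half-site AAGGTCA, the NRF1 core CGCNTGCG and the ETS site CCGGAAGT. No motif contains another. Ppargc1a held the cAMP response element 181 to 174 bases before its start, a match found in 1.59% of 33469 rat promoters of this length. Perm1 held the ERR half-site in reverse orientation (TGACCTT) 200 to 194 bases before its start (3.99% of promoters), and Tfam the ETS site 56 to 49 bases before its start (3.1%). Ppara held 3 matches to the NRF1 core and Nrf1 itself 1 (6.61% of promoters hold the core). Esrra, whose sequence is not printed, held 2 such matches. Ppargc1b, Esrrb and Esrrg held none of the 4 motifs in these windows. Ppard had no entry. GC content was 50.4% for Ppargc1a and 50.8% for Perm1, against 75.2% for Nrf1 and 76.0% for Ppara. A match of letters is a description and does not show binding.

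Among the coactivators, Perm1 showed the largest difference. Perm1 (ENSRNOG00000020244, chr5:173640780-173646073, plus strand of Rnor_6.0) encodes the muscle-restricted regulator that acts with PGC-1 and ERR on mitochondrial genes. Its level was 434.3, 517.9 and 26.0 CPM in young and 1.25, 5.27 and 4.90 CPM in aged donor hearts. The groups did not overlap, but young animal 15 lay closer to aged animals 4 and 7 than to young animals 3 and 13. The highest young heart held 19.9 times the lowest. Perm1 fell by 6.42 on the log2 scale (SE 1.28), 85.7-fold, with an adjusted p = 0.0916 by edgeR. It had the 8th lowest log2 fold change of the 13784 genes. Leaving out each heart in turn kept it past the limits each time, with -6.93 when young animal 15 was absent and -5.92 when young animal 13 was.

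Ppargc1a (ENSRNOG00000004473, chr14:63095720-63187009, plus strand of Rnor_6.0), which encodes PGC-1α, the cold- and exercise-inducible coactivator of mitochondrial biogenesis, followed. Its level was 72.1, 103.4 and 15.6 CPM in young and 0.164, 4.32 and 1.95 CPM in aged donor hearts, the value of aged animal 3 resting on 5 reads. The groups did not overlap, with the lowest young heart above the highest aged heart, and aged animal 3 lay far below the other aged donor hearts. Ppargc1a fell by 4.89 on the log2 scale (SE 1.2), 29.7-fold (adjusted p = 0.0916 by edgeR). The log2 fold change was -4.33 without aged animal 3 and -5.91 without aged animal 4, the ends of its range over the hearts left out. Ppargc1b (ENSRNOG00000017503, chr18:56626712-56728968, minus strand of Rnor_6.0), encoding PGC-1β, the paralog that is tied more to basal mitochondrial content, had 57.4, 73.7 and 12.3 CPM in young and 4.93, 7.96 and 3.91 CPM in aged donor hearts. Its fall was 3.09 on the log2 scale (SE 0.69), 8.53-fold (adjusted p = 0.0916 by edgeR). Unlike in Ppargc1a, aged animal 3 did not stand apart from the other aged donor hearts in Ppargc1b.

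By edgeR, none of the 3 ERR genes passed the limits with all hearts. At the same limits, DESeq2's Wald test called Esrrb and Esrrg lower, and limma-voom with quality weights called all 3 lower. Esrra (ENSRNOG00000021139, chr1:222168730-222178725, minus strand of Rnor_6.0), encoding ERRα, the most widely expressed ERR, was measured at 142.2, 156.9 and 65.4 CPM in young and 57.7, 98.7 and 70.9 CPM in aged donor hearts. The groups overlapped, since young animal 15 lay below aged animals 4 and 7. The log2 fold change was -0.68 (SE 0.38, adjusted p = 0.234 by edgeR). Without young animal 15 it was -0.94 and past the limits. Esrra overlaps Trmt112 on the opposite strand, and since the counting is not stated to use strand, reads of the shared stretch cannot be assigned to either gene with certainty.

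Esrrg (ENSRNOG00000002593, chr13:106463368-106683436, plus strand of Rnor_6.0), encoding ERRγ, an isoform of oxidative tissues such as heart, was measured at 71.3, 82.0 and 35.2 CPM in young and 0.263, 15.3 and 19.0 CPM in aged donor hearts. All aged values lay below all young values, and aged animal 3 held 8 reads. The log2 fold change was -2.45 (SE 1.18, adjusted p = 0.186 by edgeR), short of the limits. Without aged animal 3 it was -1.86 and past them. Esrrb (ENSRNOG00000010259, chr6:110410141-110455906, plus strand of Rnor_6.0), encoding ERRβ, best known from stem cells and the inner ear, was measured at 14.3, 23.1 and 5.37 CPM in young and 0, 3.18 and 2.68 CPM in aged donor hearts. No read was counted in aged animal 3, where 3 reads would be 0.0985 CPM. The log2 fold change of -2.87 (SE 1.3, adjusted p = 0.168 by edgeR) did not pass the limits with all hearts. It was -3.23 without young animal 15 and -2.27 without aged animal 3, past the limits in both.

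Both PPAR genes were lower in aged donor hearts. Ppara (ENSRNOG00000021463, chr7:126619196-126681752, plus strand of Rnor_6.0), encoding PPARα, the fatty acid sensor that drives fatty acid oxidation, was measured at 36.1, 50.9 and 10.5 CPM in young and 1.28, 5.80 and 6.48 CPM in aged donor hearts. The groups did not overlap. Ppara fell by 2.85 on the log2 scale (SE 0.79), 7.19-fold (adjusted p = 0.0923 by edgeR). Ppard (ENSRNOG00000000503, chr20:7818289-7885333, plus strand of Rnor_6.0), encoding PPARδ, a widely expressed receptor that also acts on fatty acid oxidation in muscle, was measured at 145.4, 173.1 and 67.0 CPM in young and 39.2, 55.3 and 47.1 CPM in aged donor hearts. Its fall was 1.44 on the log2 scale (SE 0.37), 2.72-fold (adjusted p = 0.0916 by edgeR), with the aged donor hearts within 1.41-fold of each other. Each heart left out in turn kept Ppara, Ppard and the 3 coactivators past the limits.

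Nrf1 and Tfam, the genes nearest to the mitochondrial genome in this chain, showed the smallest differences. Nrf1 (ENSRNOG00000008752, chr4:57378069-57445341, plus strand of Rnor_6.0) was measured at 28.7, 30.8 and 35.0 CPM in young and 49.7, 42.4 and 40.2 CPM in aged donor hearts. All aged values lay above all young values, and aged animal 3, the lowest heart for 8 of the other regulators, was the highest here. The log2 fold change was 0.48 (SE 0.17, adjusted p = 0.113 by edgeR), a fold of 1.4 that is under the limit of 1.5. Without young animal 15 the log2 fold change was 0.60 and past the limits. Tfam (ENSRNOG00000000613, chr20:18594037-18606151, plus strand of Rnor_6.0) was measured at 53.5, 58.6 and 50.7 CPM in young and 30.6, 46.1 and 56.7 CPM in aged donor hearts. The groups overlapped, with a log2 fold change of -0.29 (SE 0.25, adjusted p = 0.421 by edgeR). The sign of Tfam depended on the scaling, since library totals gave 0.16.

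**Figure D2:**
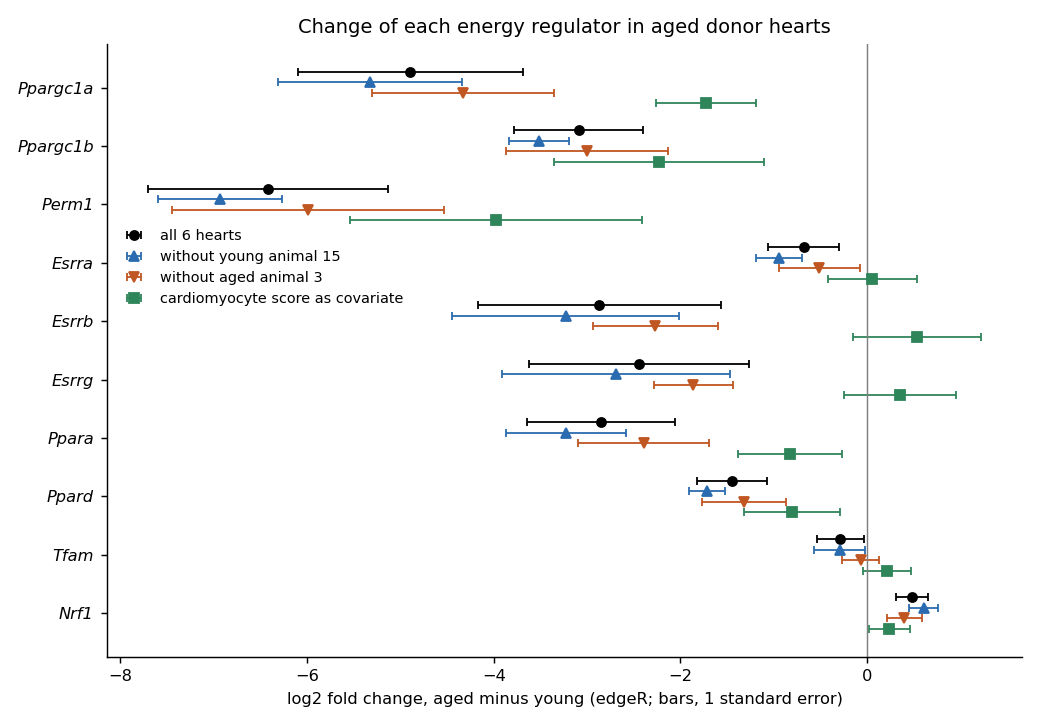
Log2 fold change (aged minus young) of each regulator by edgeR, with bars of 1 standard error, for all 6 hearts, without young animal 15, without aged animal 3 and with the cardiomyocyte marker level as a covariate. Values of Perm1, Ppargc1a, Ppargc1b, Ppara and Ppard stay left of 0 in all 4 fits, whereas those of Esrra, Esrrb, Esrrg and Tfam cross 0 with the covariate.

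Regulators other than Nrf1 had negative log2 fold changes, as did all 10 cardiomyocyte markers, and the comparison was repeated with the marker level in the model. With the mean log2 CPM of the cardiomyocyte markers in the edgeR model, the log2 fold change was -3.98 for Perm1 and -1.73 for Ppargc1a, both past the limits, and the smallest adjusted p-value of any gene was 0.772. It was -2.23 for Ppargc1b, -0.83 for Ppara and -0.81 for Ppard, no longer past them. It was 0.057 (SE 0.48) for Esrra, 0.53 (SE 0.68) for Esrrb, 0.35 (SE 0.60) for Esrrg and 0.21 (SE 0.25) for Tfam. These values were positive but each was smaller than its SE. For Nrf1 the log2 fold change was 0.24 (SE 0.22), against 0.48 without the covariate. The covariate differs between the groups, so donor age and cardiomyocyte RNA cannot be told apart in these 6 hearts.

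Set against the reads of the cardiomyocyte markers in the same heart, a scale chosen after the data were seen, none of the regulators was lower in all aged donor hearts than in all young donor hearts. Perm1 had 5779, 6190 and 2239 reads per 1000000 marker reads in the young group and 8565, 787 and 781 in the aged group. Aged animals 4 and 7 were thus below all young donor hearts, while aged animal 3, with 38 reads of Perm1 over the smallest marker sum, was above them. Ppargc1a had 960, 1236 and 1346 in the young group and 1224, 646 and 313 in the aged group, with the same 2 aged hearts below every young heart. Esrrg had 949, 981 and 3032 in the young group and 1891, 2282 and 3023 in the aged group, and Esrrb 191, 277 and 464 against 111, 477 and 428, so both overlapped. Ppargc1b had 764, 881 and 1062 in the young group and 33482, 1187 and 623 in the aged group. Ppara had 481, 608 and 909 in the young group and 8788, 866 and 1030 in the aged group. Both genes, called lower in CPM, thus overlapped on this scale, and their log2 differences (aged minus young) were 1.70 and 1.63 with all hearts and -0.06 and 0.55 without aged animal 3. Esrra, Ppard, Tfam and Nrf1 were higher in every aged heart than in every young heart on this scale, with and without aged animal 3. Nrf1 had 383, 369 and 3018 in the young group and 336707, 6315 and 6372 in the aged group. The exact permutation p-value was 0.1 for these 4 genes, the smallest that 3 hearts against 3 allow. The markers took 5.79%, 6.13% and 1.26% of counted reads in the young group and 0.0183%, 0.76% and 0.731% in the aged group. A gene with an unchanged share of reads would thus also be higher on this scale in every aged heart. The share of all genes separated on this scale was not computed.

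Ratios of regulators within the same heart do not depend on library scaling. Such ratios can still differ with the mix of cells in a heart, and that part was not tested. They were computed from FPKM, which divides the count by the length of the gene and by the total of the library, for 6 pairs, and the groups were set against each other with an exact permutation test (two-sided). In young donor hearts the log2 ratio of Ppargc1a to Ppargc1b was 0.59, 0.75 and 0.60, a spread of 0.09 (SD, n = 3) although both genes varied several-fold between these hearts. In aged donor hearts it was -4.65, -0.62 and -0.74, where the value of aged animal 3 rested on 5 reads of Ppargc1a. Ppargc1a thus exceeded Ppargc1b per length in each young heart and was below it in each aged heart, a difference of -2.65 with all hearts and -1.33 without aged animal 3.

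The log2 ratio of Esrra to Esrrg was likewise nearly constant in young donor hearts, at 2.30, 2.24 and 2.20, and stood at 9.08, 3.99 and 3.20 in aged donor hearts. The value of 9.08, in aged animal 3, rested on 8 reads of Esrrg. The difference was 3.18, or 1.35 without aged animal 3. The log2 ratio of Ppara to Ppard was -0.61, -0.37 and -1.27 in the young group and -3.53, -1.85 and -1.46 in the aged group, so it was lower in each aged heart than in any young heart, and that of Esrra to Ppara was 1.96, 1.61 and 2.62 against 5.47, 4.07 and 3.44. Tfam over Nrf1 was 2.11, 2.13 and 1.74 against 0.51, 1.33 and 1.71. For these 5 pairs the groups did not overlap (exact permutation p = 0.1, adjusted p = 0.12 over the 6 pairs), and the design cannot give a smaller p-value than 0.1. The log2 ratio of Ppargc1a to Perm1 was -2.09, -1.83 and -0.24 in the young group and -2.43, 0.21 and -0.83 in the aged group. These overlapped, with a difference of 0.37 (exact permutation p = 0.8) that turned to -0.24 without aged animal 4.

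**Figure D3:**
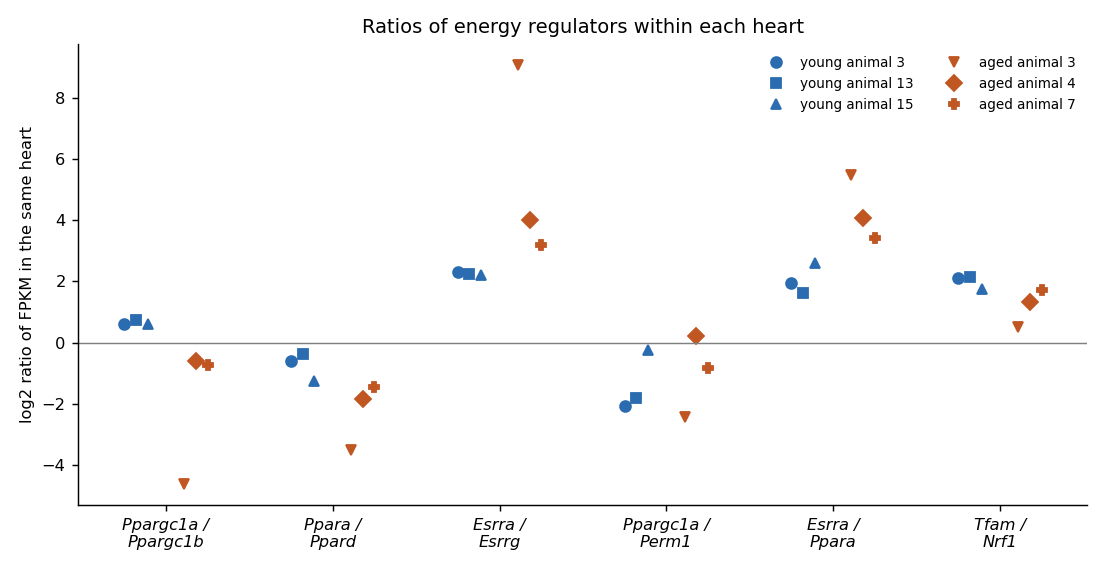
Log2 ratio of the FPKM values of a pair of regulators in the same heart (blue, young donors; orange, aged donors; 1 symbol per heart). The young values of Ppargc1a over Ppargc1b and of Esrra over Esrrg are close together (SD 0.09 and 0.05), and the aged values lie beyond them in each heart.

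The order of the regulators by mean FPKM was not the same in the 2 groups. In young donor hearts Perm1 stood first at 64.1 ± 49.5 FPKM (SD, n = 3), followed by Esrra (45.7 ± 11.1), Tfam (30.5 ± 4.99), Ppard (18.5 ± 4.97), Ppargc1a (18.1 ± 10.9), Ppara (12.0 ± 6.14), Ppargc1b (11.3 ± 6.46), Esrrg (9.58 ± 2.14), Esrrb (8.66 ± 4.27) and Nrf1 (7.85 ± 2.58). Of neighbours in this order, Tfam and Ppard alone were separated in all hearts. In aged donor hearts Esrra stood first at 41.0 ± 9.62 FPKM, followed by Tfam (34.2 ± 9.15), Nrf1 (14.8 ± 2.36), Ppard (9.83 ± 1.24), Esrrg (2.48 ± 2.15), Ppara (2.45 ± 1.49), Ppargc1b (2.0 ± 0.69), Esrrb (1.72 ± 1.5), Perm1 (1.14 ± 0.64) and Ppargc1a (0.896 ± 0.857). Here Tfam and Nrf1, Nrf1 and Ppard, and Ppard and Esrrg were separated in all hearts, and the other neighbours overlapped. By group means, Perm1 moved from the first to the ninth place and Nrf1 from the tenth to the third. Young animal 15 did not show the order of the young means. In that heart Perm1 had 7.31 FPKM, below Tfam (36.3), Esrra (33.0) and Nrf1 (10.8).

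**Figure D4:**
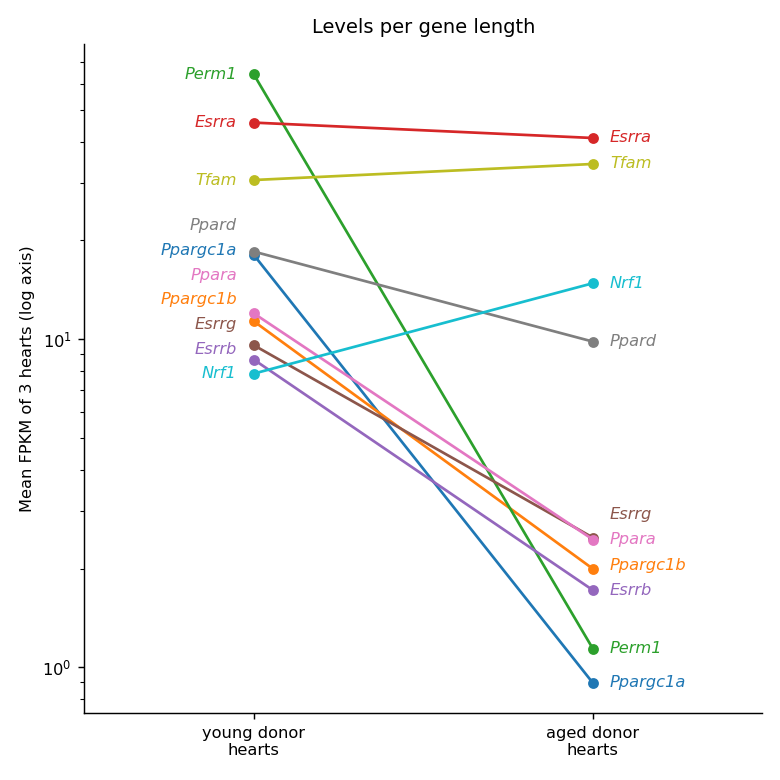
Mean FPKM of 3 hearts for each regulator on a log axis, with young donor hearts on the left and aged donor hearts on the right, and 1 line per gene. Lines of Perm1 and Ppargc1a run from 64.1 and 18.1 to 1.14 and 0.896 FPKM, Nrf1 has 7.85 and 14.8 FPKM, Esrra 45.7 and 41.0, and Tfam 30.5 and 34.2, on a scale set by library totals.

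Across the 6 hearts, regulators other than Nrf1 rose and fell together, to unequal degrees. The highest Pearson correlation of log2 CPM between 2 regulators was that of Esrrb with Esrrg (r = 0.99, n = 6). Among pairs without Nrf1, the lowest was that of Ppargc1b with Tfam (r = 0.51). Nrf1 was negatively correlated with each of the other 9 (r from -0.97 to -0.78). The genes most like Ppargc1a were Dmpk, Fsd2 and Cep19 (r above 0.99), the first encoding the myotonic dystrophy kinase of muscle. Those most like Ppara were Nnt, which encodes the mitochondrial transhydrogenase, Slc6a8, which encodes the creatine transporter, and Tmem116. Those most like Esrra were Phb2, which encodes a prohibitin of the inner mitochondrial membrane, Ubald2 and Mrps34, which encodes a mitochondrial ribosomal protein. Of 9561 genes compared, 736 exceeded r = 0.95 with Ppargc1a, 965 with Ppara and 242 with Esrra. The points share the group difference and the 2 hearts that stood apart, so these correlations describe the hearts and carry no test.

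Other members of the families moved in both directions. Pprc1, the third member of the PGC-1 family, was measured at 33.2, 33.4 and 90.6 CPM in young and 108.2, 110.7 and 135.7 CPM in aged donor hearts. It rose by 1.17 on the log2 scale (SE 0.43, adjusted p = 0.121 by edgeR), opposite to Ppargc1a and Ppargc1b. Pparg, the adipogenic PPAR, rose by 0.59 (SE 0.24, adjusted p = 0.136 by edgeR) at a low level of 8.35 CPM in young and 12.6 CPM in aged donor hearts. Leaving out any heart other than young animal 15 left neither gene past the limits.

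The RXR partners of the PPARs were also split. Rxrg, the RXR of striated muscle, was measured at 110.3, 112.4 and 10.6 CPM in young and 1.15, 8.76 and 5.6 CPM in aged donor hearts and fell by 3.91 on the log2 scale (SE 1.09, adjusted p = 0.0923 by edgeR). The log2 fold change was 0.15 for Rxra and -0.68 for Rxrb, neither past the limits. Of 24 cofactors and upstream regulators tested, 5 were lower, 0 higher and 19 not past the limits, with a median log2 fold change of 0.05. The share lower was near that of all genes tested, of which 19.0% were lower and 13.2% higher. The 5 lower cofactors were Klf15 (-4.15), a cardiac factor of lipid and amino acid use, Lpin1 (-2.94), a coactivator partner of PGC-1α and PPARα, Mef2d (-0.89) and Mef2c (-0.89), myocyte enhancer factors that act on Ppargc1a, and Ncoa2 (-0.80), a receptor coactivator. Prkaa2, the AMPK catalytic subunit of muscle, had a log2 fold change of -2.49, short of the limits, with 0.722 CPM in aged animal 3, and the corepressors Nrip1 and Ncor1 had 0.32 and -0.16. Sirt1 was not analysed here.

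Target genes of the receptors were mostly lower. Of 25 PPAR targets tested, 17 were lower, 2 higher and 6 not past the limits (median log2 fold change -2.0). Of all genes tested, 19.0% were lower and 13.2% higher. All aged donor hearts lay below all young donor hearts for 11 of the 25 targets (20.6% of all genes tested). They lay above them for 2 (21.0%). The lower targets included Fabp3 (-4.96), the fatty acid carrier of heart, and Plin5 (-3.68), a lipid droplet coat protein. Also lower were Lpl (-3.13), the lipase that releases fatty acids from circulating triglyceride, and Cpt1b (-2.79), the muscle enzyme for entry of fatty acids into mitochondria. The groups of Plin5 overlapped, with 3.72 CPM in young animal 15 against 6.29 and 5.36 CPM in aged animals 4 and 7. The 2 higher genes were Angptl4, an inhibitor of Lpl, and Plin2, another droplet coat protein. Angptl4 had 6.53, 3.82 and 39.1 CPM in young and 222.1, 281.0 and 363.6 CPM in aged donor hearts and rose by 4.13 on the log2 scale (SE 0.95, adjusted p = 0.0916 by edgeR). Plin2 rose by 2.09 (SE 0.53, adjusted p = 0.0916 by edgeR). Pdk4, the kinase that curbs glucose oxidation, had 304.1, 387.1 and 108.0 CPM in young and 7.0, 221.4 and 511.2 CPM in aged donor hearts, and its log2 fold change of -0.11 (SE 1.22) rested on hearts that ranged widely within the aged group. Ucp3 had a log2 fold change of -2.10 and did not pass the limits, and Cd36 was not analysed here.

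Of 14 ERR targets, 12 were lower, 0 higher and 2 not past the limits (median -2.12). The shares of all genes tested were 19.0% lower and 13.2% higher. The lower targets included Slc25a4 (-2.85), the ADP/ATP carrier, Ndufs1 (-2.70), a subunit of complex I, and Cycs (-2.42), cytochrome c. Vegfa, the angiogenic factor induced by PGC-1α with ERRα, was lower too (-2.61), although its groups overlapped. Ckmt2, the mitochondrial creatine kinase, had -3.13 without passing the limits (adjusted p = 0.172 by edgeR). With the cardiomyocyte covariate, 0 ERR targets were lower and 1 higher, and 1 PPAR target was lower and 4 higher. In that fit 422 of the 13784 genes tested were lower and 361 higher. The smallest adjusted p-value of any gene by edgeR was 0.772, so these counts are a description.

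The machinery of the mitochondrial genome showed few calls. Of 15 genes for its maintenance and transcription, 2 were lower, 1 higher and 12 not past the limits (median -0.16), beside 19.0% lower and 13.2% higher of all genes tested. Mterf2 (-2.38) and Mterf4 (-0.75), of the mitochondrial transcription termination factor family, were lower and Polg (0.61), the catalytic subunit of the mitochondrial DNA polymerase, was higher. Tfb2m (-0.89) and Polrmt (-0.83), which start transcription together with TFAM, did not pass the limits. Of the 13 transcripts of the mitochondrial genome itself, 7 were lower and 6 not past the limits (median -1.84), beside the same 19.0% lower. The largest falls were those of Mt-nd6 (-2.49), Mt-nd5 (-2.23) and Mt-co2 (-2.22). Together the 13 transcripts took 21.7%, 21.7% and 11.9% of all counted reads in the young group and 6.56%, 7.99% and 10.3% in the aged group. The mitochondrial transcripts were counted in polyadenylated RNA. All target lists moved together with the cardiomyocyte markers (median -3.15 over the 10 markers), with the lowest sums in aged animal 3 and, among young donor hearts, in young animal 15, and the part of cardiomyocyte RNA in these counts was not tested beyond the covariate.

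**Figure D5:**
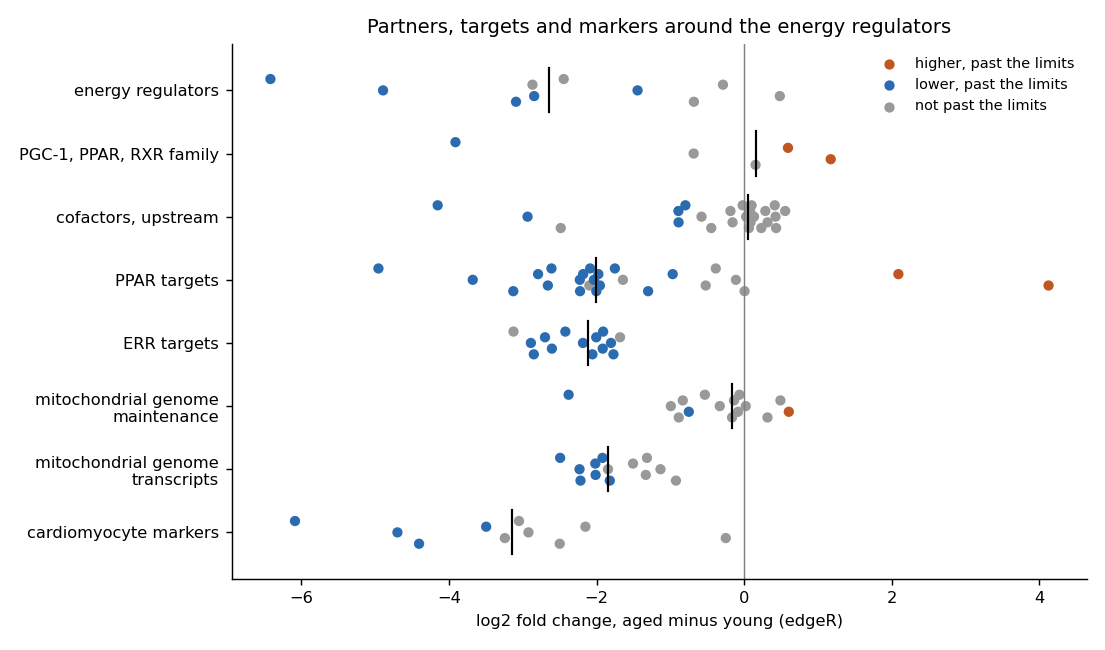
Log2 fold change (aged minus young, edgeR) of each tested gene in the lists around the regulators, with 1 point per gene, coloured by whether it passed the limits, and a vertical line at the median of each list. PPAR and ERR targets centre near -2.0 and -2.12, with Angptl4 and Plin2 on the right, while cofactors and genes of mitochondrial genome maintenance centre near 0.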

How the data were processed

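Polyadenylated RNA of 6 left ventricles, 3 from young and 3 from aged donors, had been sequenced in paired reads on an Illumina instrument. The authors deposited 1 table with, for 22250 Ensembl rat genes, a raw read count and an FPKM value per heart. The submitters' processing notes name HISAT2 2.0.5, StringTie 1.3.3b, featureCounts 1.5.0-p3, DESeq2 1.16.1, GATK 3.7 and the build Rnor_6.0, without their roles. The use of strand is not given in the sources used here. The deposited FPKM values equal the count over gene length and library total in all but 1 of 133500 values checked.

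Differences in counts were fitted with edgeR 4.0.16 under R 4.3.3 (filterByExpr, trimmed mean of M values, glmQLFit and glmQLFTest, no covariates). The SE is the size of the log2 fold change over the square root of the F statistic, and log2 CPM used a prior count of 2. Ratios and marker-scaled levels were compared in Python 3.11.15 with scipy 1.17.1. Replicates were taken as separate hearts from their titles, and beyond that p-values measure only the spread between these samples. A depth of 3 counts corresponds to 0.0985 to 0.191 CPM, and such a floor covers counting error only. The comparisons of the 2 groups by edgeR, DESeq2 and limma-voom were first tested on simulated counts with known changes. The permutation test was checked on a case with a known p-value, and the covariate model was not simulated. Promoter sequences from RefSeq (GRCr8) were matched by symbol for 9 of the 10 genes.

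The regulators, the lists of partners, targets and markers and the tests were chosen with earlier results of these data known. The genes named were all regulators, a fixed set of partners and targets, the 3 largest falls and rises past the limits in each list with a mean of at least 1 CPM, and the 3 genes most correlated with Ppargc1a, Esrra and Ppara among genes with a mean of at least 10 CPM. Some genes that this rule would name are not reported here by name. Mef2c, Ncoa2 and Trmt112 were named after their values were seen. Alternatives were DESeq2 1.42.0 (its size factors and its Wald test), library totals, other filters, the mitochondrial genome left out, limma-voom (limma 3.58.1) with quality weights, a cardiomyocyte covariate, adjusted p-values and each heart left out. Leaving out 2 hearts at once and scaling by marker reads were added after the data were seen.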

Additional observations from a re-analysis of the deposited data

How the results depend on the processing

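No paired analysis was possible because the groups share only the number 3, which marks different animals. Over the fits that left out 1 heart each, 5 to 7 regulators were lower, 0 to 1 higher and 8 to 9 had groups without overlap, while 817 to 3802 of all genes were higher and 1615 to 3412 lower. The share of all genes without overlap was not computed with a heart left out. Groups with fewer hearts separate more readily, so the 8 to 9 regulators are a description. In the same fits, family genes ran from 0 to 2 higher and 1 to 2 lower, cofactors from 0 to 2 higher, PPAR targets from 9 to 17 lower, mitochondrial maintenance genes from 0 to 3 higher and 1 to 5 lower, and mitochondrial transcripts from 2 to 11 lower. All 10 regulators kept their sign in those fits. The log2 ratio difference of Ppargc1a to Perm1 ran from -0.24 (without aged animal 4, reversed) to 1.08. Without young animal 15 and aged animal 3 together, 8 regulators were lower, beside 3632 genes of the table lower and 3764 higher. That fit also gave 2 family genes lower, 1 cofactor higher and 8 lower, 3 maintenance genes higher and 5 lower, and 12 mitochondrial transcripts lower. With adjusted p-values below 0.05 required, each count was 0. With the cardiomyocyte covariate, 2 regulators were lower, 361 genes of the table higher and 422 lower, 0 family genes were called, 2 cofactors were lower, 4 PPAR targets higher and 1 lower, 1 ERR target higher and 0 lower, and 0 genes were called in both mitochondrial lists. The signs of Esrra (0.057), Esrrb (0.53), Esrrg (0.35) and Tfam (0.21) reversed with the covariate, each value being smaller than its SE. With library totals, Tfam reversed to 0.16, 1 regulator was higher, 3147 genes of the table were higher and 1441 lower, 5 cofactors higher and 2 lower, and 1 maintenance gene lower. With limma-voom, 8 regulators were lower, beside 3815 genes of the table lower and 3689 higher. It also gave 2 family genes lower, 2 cofactors higher and 8 lower, 2 maintenance genes higher and 6 lower, and 12 mitochondrial transcripts lower. DESeq2's test gave 7 lower regulators, beside 2921 genes of the table lower and 2148 higher. It also gave 1 higher family gene and 12 lower mitochondrial transcripts. DESeq2's size factors in edgeR gave 1 higher family gene. Other filters on low counts and leaving out the mitochondrial genome kept the counts within 1.5 times, and the mitochondrial transcripts have no value in the latter. The cause of these shifts was not tested. With 3 hearts a group, an exact permutation test cannot go below 0.1, and low aged levels such as that of Ppargc1a in aged animal 3 rest on few reads.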
